A study of Mus musculus with 4 samples.

Results

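The genes described here are 9 transcripts read as output of growth factor and ERK signalling, and several of their products restrain it. They are the ETS factors Etv5, Etv4 and Etv1, the Sprouty genes Spry1, Spry2 and Spry4, Spred1 and Spred2, and the phosphatase gene Dusp6. They were taken by gene symbol from 23235 genes measured in 4 RNA-seq libraries of the mouse uterus, and all 9 were found in both deposited tables. The members were chosen by pathway and around a measured value, the low RPKM of Etv5 in luminal epithelium labelled knockout against its control, so the difference between genotypes in that compartment is a description and supports nothing further. Luminal epithelium, the cell layer facing the uterine cavity, and the stroma beneath it were captured by laser microdissection on day 4 of pseudopregnancy, after mating with a vasectomized male.

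Each compartment gave 1 library labelled Knockout (d/d), of strain Msx1 d/d/Msx2 d/d, and 1 library labelled Control (f/f), of strain Msx1 f/f/Msx2 f/f, so the controls carry the floxed alleles of both homeobox genes. The deletion was described as uterine-specific, the sources used here name neither its driver nor the ages of the mice, and the design text speaks of 1 mouse of each genotype. With 1 library per group there is no replicate and no test, and "higher" and "lower" describe these libraries only. The estimated depth, in M reads, was 91.97 for luminal epithelium labelled knockout, 6.31 for its control, 61.5 for stroma labelled knockout and 43.2 for its control. Limits given with a level or ratio are 95% exact limits on estimated reads, which cover counting error only. Msx1 was at 13.6 RPKM (reads per kilobase of transcript and M mapped reads) in luminal epithelium labelled knockout, against 23.2 RPKM in control, and Msx2 was at 2.06 RPKM in the labelled knockout and 1.31 RPKM in control. Msx1 was thus lower in the labelled knockout, at a ratio of 0.587 with limits of 0.514 and 0.669. Msx2 was not lower, and its ratio of 1.58, on 19 estimated control reads, had limits of 0.978 and 2.59 that reach equal levels. The libraries are called labelled knockout throughout. General epithelial markers summed to 485 RPKM in epithelium labelled knockout and 424 RPKM in control epithelium, and to 0.521 RPKM in stroma labelled knockout and 1.76 RPKM in control stroma.

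ERK is the last kinase of a relay that runs from a growth factor receptor through RAS, RAF and MEK. Active ERK switches on a small set of genes in most tissues, and several of their products then restrain the relay, so these transcripts are widely read as its output. Etv1, Etv4 and Etv5 form the PEA3 group of ETS factors and carry the transcriptional response to fibroblast growth factors. Sprouty proteins block the relay between the receptor and RAF, Spred proteins bring the RAS inactivator neurofibromin to the membrane, and DUSP6 removes the activating phosphates from ERK. In the uterus, growth factors released by stroma act on receptors of the epithelium, and the stromal factor HAND2, under progesterone, limits that signal.

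Promoter sequence is shown for Etv5, which differed most between genotypes in luminal epithelium, and for Dusp6 and Spry2, which did not follow it there. Of the 9 genes, 7 had entries in a RefSeq promoter table of build GRCm38.p6, with 9 transcription starts among them. The 250 bases before a start are printed 5′ to 3′ on the strand of the gene. Capitals mark the ETS core GGAAGT or the octamers TGAATGAA and TCAATGAA, bound by Capicua, a repressor that ERK inactivates, searched on both strands with no overlap between the matches shown. No other form of a Capicua site was searched, so a window without a marked octamer may still hold one.
Etv5 outer start, chr16:22439571-22439820, minus strand: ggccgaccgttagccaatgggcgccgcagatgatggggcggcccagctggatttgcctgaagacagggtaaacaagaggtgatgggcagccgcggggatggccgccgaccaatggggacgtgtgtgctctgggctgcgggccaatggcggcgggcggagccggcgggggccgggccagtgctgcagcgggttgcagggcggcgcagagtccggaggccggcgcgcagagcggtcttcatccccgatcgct
Etv5 inner start, chr16:22438369-22438618, minus strand: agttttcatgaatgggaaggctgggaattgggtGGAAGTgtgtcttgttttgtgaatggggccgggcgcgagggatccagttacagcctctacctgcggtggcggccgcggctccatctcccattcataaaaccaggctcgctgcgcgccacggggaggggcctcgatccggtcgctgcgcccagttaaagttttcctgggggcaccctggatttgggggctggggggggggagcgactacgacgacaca
Dusp6, chr10:99262981-99263230, plus strand: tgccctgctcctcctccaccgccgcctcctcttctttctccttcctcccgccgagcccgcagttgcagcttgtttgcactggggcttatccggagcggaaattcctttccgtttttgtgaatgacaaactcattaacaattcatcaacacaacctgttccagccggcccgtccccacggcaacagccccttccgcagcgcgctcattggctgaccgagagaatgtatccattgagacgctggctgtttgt
Spry2, chr14:105896820-105897069, minus strand: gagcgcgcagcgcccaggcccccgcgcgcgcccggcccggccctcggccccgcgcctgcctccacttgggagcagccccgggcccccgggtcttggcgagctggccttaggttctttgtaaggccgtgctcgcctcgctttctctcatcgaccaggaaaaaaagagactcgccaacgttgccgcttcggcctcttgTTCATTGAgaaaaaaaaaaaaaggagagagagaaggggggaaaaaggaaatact
The ETS core lay at position -217 of the inner Etv5 start, and was absent from these windows of the outer Etv5 start, Dusp6 and Spry2. An octamer lay at position -54 of Spry2, on the opposite strand. Over all 9 starts, 2 held the ETS core (the inner Etv5 start and Spred2) and 1 held an octamer of the searched forms, against 19.7% and 1.7% of 32851 promoters of the same length. These matches describe letters in short windows and nothing was measured at them.

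Of the members averaging 1 RPKM or more in luminal epithelium, Etv5 was the one at least 2-fold apart between genotypes on the log2(RPKM + 1) scale, and it was lower in the labelled knockout. Etv5 (chromosome 16, 22381386 to 22439643, build mm9) was at 0.812 RPKM in luminal epithelium labelled knockout, against 7.77 RPKM in control. These levels rest on 282 and 185 estimated reads. In stroma it was at 0.53 RPKM in the labelled knockout and 0.602 RPKM in the control. The control epithelium therefore stood alone at a high level, and the other 3 libraries lay between 0.53 and 0.812 RPKM. The ratio of labelled knockout to control in luminal epithelium was 0.105, with limits of 0.0866 and 0.127, a 9.56-fold lower level. On the log2(RPKM + 1) scale, which understates differences of low genes, the difference was -2.27, and 34 of the 7736 genes whose 2 values averaged 1 RPKM or more, Etv5 included, were as low or lower. Differences of at least 2-fold on that scale were found in 7.02% of these genes, 5.03% higher and 1.99% lower in the labelled knockout. The authors' deposited table marked Etv5 as significant with a q-value of 0.0487, a comparison of 2 libraries that 94 of 11176 genes tested there passed (0.841%). In stroma the ratio was 0.88, with limits of 0.67 and 1.16 that reach equal levels. The difference between the compartments in this contrast was not tested.

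The control library was both the shallowest of the 4 and the epithelial one with higher sums of leukocyte, smooth muscle, stromal and endothelial markers. The sum of glandular markers, mostly 1 gene, was higher in the labelled knockout. In bulk RNA fewer cells of a type cannot be told apart from less RNA per cell. The 11 leukocyte markers measured summed to 2.96 RPKM in luminal epithelium labelled knockout and 18.7 RPKM in control, with 10 of 11 lower and none listed at 0. In stroma the same markers summed to 60.2 RPKM in the labelled knockout and 135 RPKM in the control, where Etv5 stood at 0.53 and 0.602 RPKM. Smooth muscle markers summed to 0.572 RPKM in epithelium labelled knockout and 6.05 RPKM in control, with all 7 lower and Myl9 listed at 0 in the labelled knockout. Stromal markers summed to 5.81 RPKM in epithelium labelled knockout and 13.7 RPKM in control, with 10 of 11 lower and Tcf21 listed at 0 in both. Endothelial markers summed to 0.194 RPKM in the labelled knockout and 0.42 RPKM in the control, with Emcn and Cldn5 listed at 0 in both and Kdr and Tek in the control. Glandular markers summed to 5.92 RPKM in the labelled knockout and 1.19 RPKM in the control, mostly Aldh1a1, with Spink3, Prss28 and Prss29 listed at 0 in both. Of the 7 glandular markers, 3 were higher and 1 was lower in the labelled knockout. The lower one was Foxa2, at 0.0312 RPKM in the labelled knockout and 0.0881 RPKM in control, on 6 and 1 estimated reads. The part of depth and of these markers in the level of Etv5 was not tested.

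**Figure D1:**
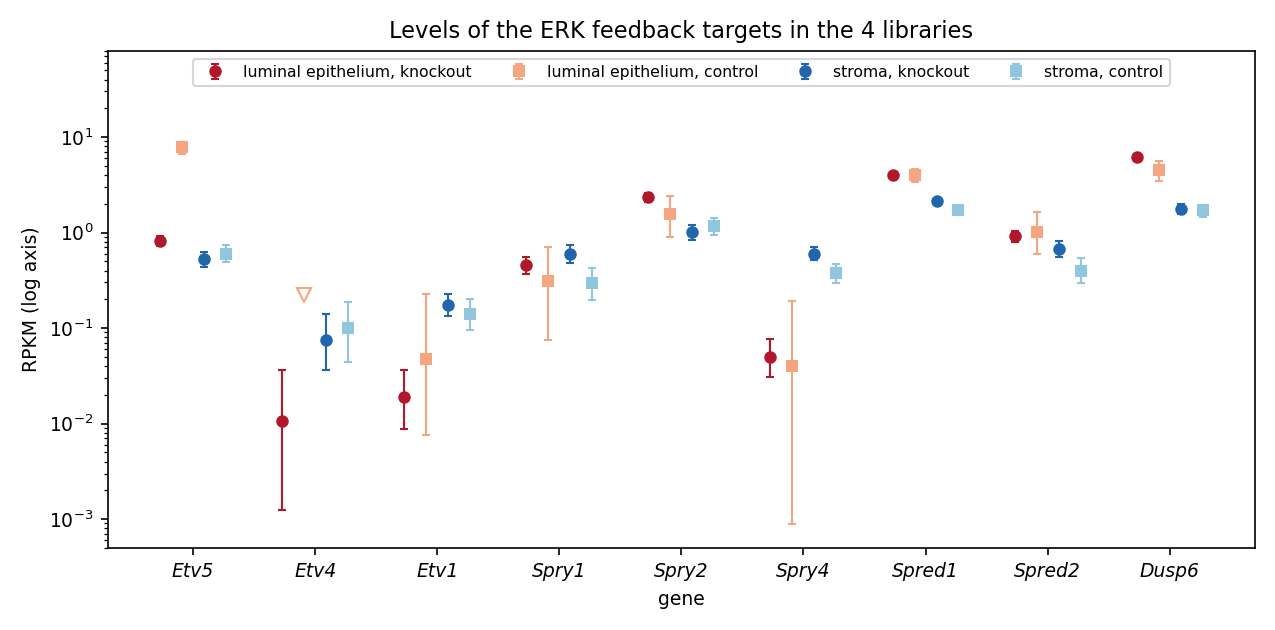
Level of each of the 9 genes in RPKM (log axis) in luminal epithelium and stroma, labelled knockout (circles) and control (squares), 1 library each; bars are 95% counting limits and the open triangle is the level that 3 reads would give where Etv4 was listed at 0. Etv5 in control epithelium, at 7.77 RPKM, stands apart from its other 3 levels, while Dusp6 and Spred1 are higher in both epithelial libraries than in both stromal ones.

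The relatives of Etv5 were near the limit of detection in epithelium. Etv4, a PEA3 factor that often moves with Etv5 downstream of fibroblast growth factors, was at 0.0107 RPKM in luminal epithelium labelled knockout and listed at 0 in control. In stroma it was at 0.0747 RPKM in the labelled knockout and 0.0996 RPKM in the control. The shallow epithelial control could not have shown it, since 3 reads on Etv4 would stand for 0.222 RPKM there. Etv1, the third PEA3 factor, was at 0.0189 RPKM in luminal epithelium labelled knockout and 0.0476 RPKM in control, on 9 and 2 estimated reads. Its ratio of 0.397 had limits of 0.064 and 2.94, so no difference was detectable at this depth. In stroma Etv1 was at 0.176 RPKM in the labelled knockout and 0.142 RPKM in the control. Of the summed RPKM of the 3 PEA3 factors, Etv5 gave 96.5% in epithelium labelled knockout and 99.4% in control epithelium, against 67.9% and 71.4% in stroma labelled knockout and control stroma. That sum was 0.842 RPKM in epithelium labelled knockout and 7.82 RPKM in control epithelium. In stroma it was 0.78 RPKM in the labelled knockout and 0.843 RPKM in the control.

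Dusp6 and Spry2, the ERK phosphatase and an inhibitor of the relay, did not follow Etv5 down. Dusp6 (chromosome 10, 98725865 to 98730123, mm9) was at 6.12 RPKM in luminal epithelium labelled knockout and 4.46 RPKM in control. In stroma it was at 1.75 RPKM in the labelled knockout and 1.71 RPKM in the control. Its ratio in epithelium was 1.37 with limits of 1.09 and 1.76. Rescaling each library by its total after removal of the top 50 genes gave 1.16 with limits of 0.918 and 1.49, which reach equal levels. The ratio of Etv5 to Dusp6 within a library, which no scaling changes, was 0.133 in epithelium labelled knockout and 1.74 in control epithelium. In stroma it was 0.303 in the labelled knockout and 0.352 in the control. Only control epithelium of the 4 libraries held more Etv5 than Dusp6 per length.

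Among the Sprouty genes, Spry2 (chromosome 14, 106291164 to 106296036) was at 2.33 RPKM in luminal epithelium labelled knockout and 1.55 RPKM in control. Its ratio of 1.51 had limits of 0.963 and 2.63, on 404 and 18 estimated reads. In stroma Spry2 was at 1.01 RPKM in the labelled knockout and 1.17 RPKM in the control, a ratio of 0.863 with limits of 0.654 and 1.15. Both sets of limits reach equal levels. Spry1, which restrains receptor signalling during branching of epithelial organs, was at 0.456 RPKM in epithelium labelled knockout and 0.309 RPKM in control, on 96 and 4 reads. In stroma Spry1 was at 0.599 RPKM in the labelled knockout and 0.299 RPKM in the control, a ratio of 2.01 with limits of 1.32 and 3.22. Spry4, another ERK-induced Sprouty, was at 0.0493 RPKM in epithelium labelled knockout and 0.0399 RPKM in control, where it rested on 1 estimated read. In stroma Spry4 was at 0.602 RPKM in the labelled knockout and 0.376 RPKM in the control, a ratio of 1.6 with limits of 1.21 and 2.14. The summed Sprouty level was 2.83 RPKM in epithelium labelled knockout and 1.89 RPKM in control epithelium, and 2.21 RPKM in stroma labelled knockout and 1.84 RPKM in control stroma.

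Of the Spred genes, Spred1 was nearly level between genotypes in epithelium. Spred1 (chromosome 2, 116947186 to 117005072) was at 4.04 RPKM in luminal epithelium labelled knockout and 3.98 RPKM in control, on 2161 and 146 estimated reads. Its ratio of 1.02 had limits of 0.859 and 1.21, and fell below 1, to 0.926 and 0.857, under the other scalings tried. In stroma Spred1 was at 2.12 RPKM in the labelled knockout and 1.71 RPKM in the control, a ratio of 1.24 with limits of 1.1 and 1.4. Spred2, its closest relative, was at 0.913 RPKM in epithelium labelled knockout and 1.0 RPKM in control, with limits of the ratio of 0.55 and 1.57. In stroma Spred2 was at 0.677 RPKM in the labelled knockout and 0.4 RPKM in the control, a ratio of 1.69 with limits of 1.18 and 2.42.

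**Figure D2:**
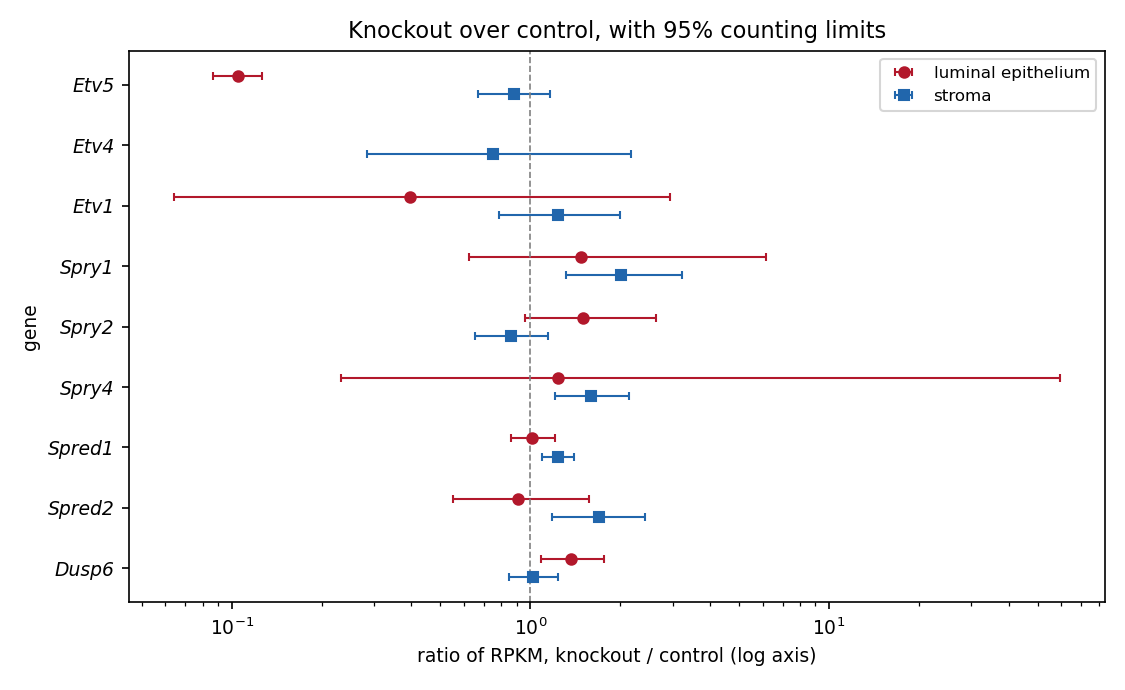
Ratio of RPKM, labelled knockout over control (log axis), for the 9 genes in luminal epithelium (circles) and stroma (squares), 1 library per group, with 95% counting limits; Etv4 in epithelium has no ratio because the control was listed at 0. Etv5 in epithelium lies at 0.105, and the wide bars of Spry4 and Etv1 reflect 1 and 2 reads in the control.

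Counted over the list, 4 of the 9 genes averaged 1 RPKM or more in epithelium (Etv5, Spry2, Spred1 and Dusp6), Etv5 through its control library. Of these, 1 was at least 2-fold lower and none higher. The median log2 difference of these 4 was 0.20, against 0.10 for the 7736 genes kept. In stroma Spry2, Spred1 and Dusp6 were kept, and none was 2-fold apart, where 3.04% of 7723 genes were (1.45% higher and 1.59% lower). Their median was 0.02, against 0.07 for all kept genes. Limits that left out equal levels were found for 2 of the 9 genes in epithelium (Etv5 and Dusp6) and for 4 in stroma (Spry1, Spry4, Spred1 and Spred2, all higher in the labelled knockout). Of genes above 3 estimated reads in at least 1 library of the pair, 27.9% in epithelium and 35.1% in stroma had such limits, so these counts are not far from the background. In the authors' deposited tables, 6 of the 9 genes were tested in epithelium and 7 in stroma. In the authors' deposited table the other tested members had q-values of 1.0 after rounding, and in stroma 0.0409% of tested genes were marked.

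Set across compartments, the 9 genes split between those higher in epithelium and those higher in stroma. The compartments are in tables that were normalized separately, so these are levels set side by side. Dusp6 was 3.51-fold higher in epithelium than in stroma in the labelled knockouts, with limits of 3.08 and 4.0, and 2.61-fold higher in the controls, with limits of 1.97 and 3.44. Spred1 was higher by 1.91-fold in the labelled knockouts and 2.32-fold in the controls. Spry2 was 2.31-fold higher in epithelium labelled knockout, with limits of 1.87 and 2.86. In the controls its ratio was 1.32, with limits of 0.736 and 2.16. Spry4 ran the other way, at 0.0818 of its stromal level in the labelled knockouts, with limits of 0.0501 and 0.131, and 0.106 in the controls, with limits of 0.00231 and 0.531. Etv1 and Etv4 were also lower in epithelium labelled knockout, at 0.108 and 0.143 of their stromal levels, with limits below 1. In the controls the epithelial reads were too few to tell. Spred2 was 1.35-fold higher in epithelium in the labelled knockouts and 2.51-fold higher in the controls, while Spry1 had ratios of 0.762 in the labelled knockouts and 1.03 in the controls with limits that reach equal levels. Etv5 was 1.53-fold higher in epithelium than in stroma in the labelled knockouts, with limits of 1.24 and 1.91, and 12.9-fold higher in the controls, with limits of 10.05 and 16.7.

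Differences of at least 2-fold between compartments were common, in 31.4% of 8350 genes in the labelled knockouts (20.7% higher and 10.7% lower in epithelium) and 31.7% of 8030 genes in the controls (19.6% higher and 12.1% lower). Of the 9 genes, 3 were kept in the labelled knockouts, of which Dusp6 was higher by that measure, and 4 in the controls, of which Etv5 and Dusp6 were. Dividing each library by its upper quartile moved the median of all genes by -0.42 in the labelled knockouts and -0.39 in the controls. Etv5 was then at a ratio of 1.04, with limits of 0.841 and 1.3, between the compartments labelled knockout, and 8.99 in the controls. Dusp6 kept ratios of 2.39 and 1.82 in labelled knockouts and controls, each with limits above 1. Spred2 turned to the stromal side in the labelled knockouts at 0.918, and Spry2 and Spry1 in the controls at 0.921 and 0.72, all with limits that reach equal levels. Spry1 in the labelled knockouts was then at 0.518 of its stromal level, with limits of 0.384 and 0.705, and at 0.58, with limits of 0.43 and 0.789, after removal of the top 50 genes, so that its limits left out equal levels under both.

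**Figure D3:**
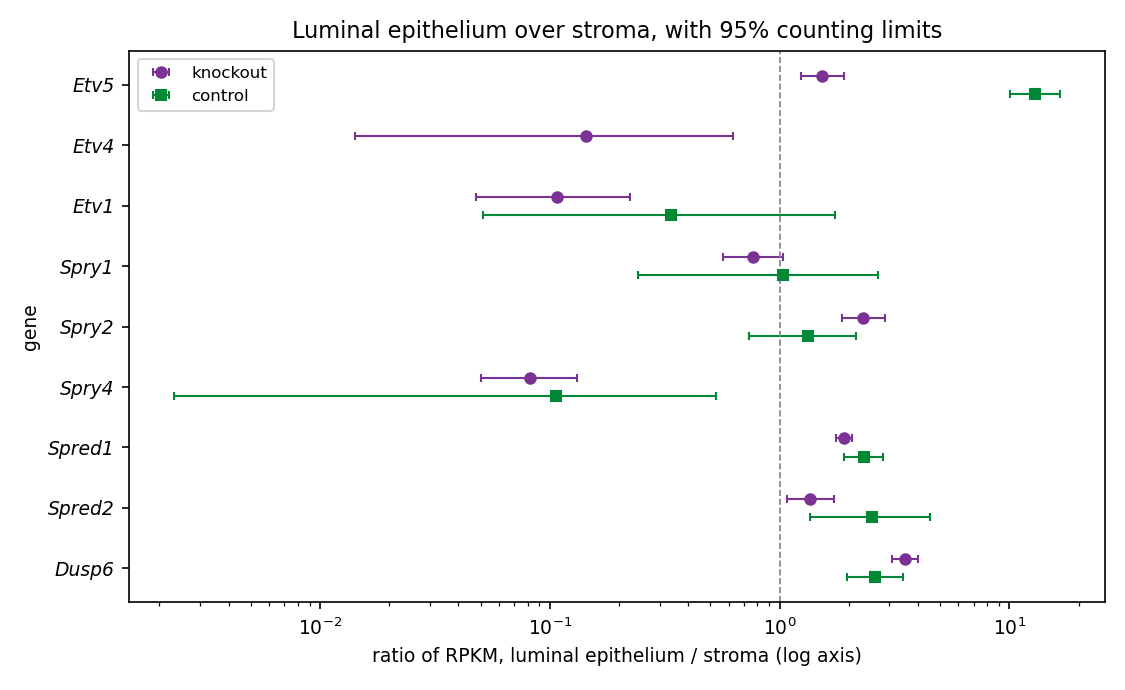
Ratio of RPKM, luminal epithelium over stroma (log axis), for the 9 genes in the libraries labelled knockout (circles) and the controls (squares), 1 library each, with 95% counting limits and across tables normalized separately. Etv5 is 1.53 in the labelled knockouts and 12.9 in the controls, and Spry4 lies on the stromal side in both.

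Between genotypes in epithelium, Etv5 held rank 5 of the 9 levels in the labelled knockout and rank 1 in the control. In epithelium labelled knockout Dusp6 was highest, followed by Spred1 and Spry2, each apart from the next by its limits, then Spred2 and Etv5, whose ratio had limits of 0.94 and 1.35. In control epithelium Etv5 was highest and was apart from Dusp6, by a factor with limits of 1.32 and 2.32. Dusp6 and Spred1 there could not be separated. In both stromal libraries Spred1 and Dusp6 led, Spry2 was next, and Etv1 and Etv4 were lowest. Spred2, Spry4 and Spry1 could not be separated from each other as neighbours in either stromal library.

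The rest of the relay was described with lists of pathway genes, for which kept genes and 2-fold counts are on the log2(RPKM + 1) scale as above. Over all kept genes, 7.02% in epithelium and 3.04% in stroma were 2-fold apart, with medians of 0.10 and 0.07. Of 30 other ERK output genes, 13 were kept in epithelium, with 1 at least 2-fold higher, none lower and a median log2 difference of 0.37. That one was Ier3, an early response gene linked to cell survival, at 10.8 RPKM in the labelled knockout and 3.43 RPKM in control, a ratio of 3.14 with limits of 2.04 and 5.21. Mcl1, a survival factor of the BCL2 family, was at 11.5 RPKM in epithelium labelled knockout and 10.05 RPKM in control. Trib1, a pseudokinase and the lowest of the list by difference, was at 0.749 RPKM in the labelled knockout and 1.72 RPKM in control, and was named after its values were seen. Its ratio of RPKM was 0.436 with limits of 0.316 and 0.607. Hbegf, a ligand of the EGF receptor also named after its values were seen, was at 1.58 RPKM in the labelled knockout and 0.473 RPKM in control, a ratio of 3.34 with limits of 1.64 and 9.93. Both were more than 2-fold apart as ratios of RPKM and less on the log2(RPKM + 1) scale. Other ratios with limits above 1 were Lif (5.9, on 3 control reads), Ccnd1 (2.78), Errfi1 (1.94), Fos (1.78), Epha4 (1.73), Jun (1.43) and Junb (1.35). Cic, at 0.784, had limits below 1. The lower limits of Jun and Junb were 1.04 and 1.11, and scaling without the top 50 genes multiplies epithelial ratios by 0.844. All these genes were likewise named after their values were seen. Over all genes above 3 estimated reads in at least 1 epithelial library, 27.9% had limits that left out equal levels. Of the 13 kept genes, 10 were above 0 and 3 below, where 61.9% of all kept genes were above 0. Il17rd, an inhibitor of fibroblast growth factor receptors, was also chosen after its values were seen. It was at 0.104 RPKM in epithelium labelled knockout and 0.0997 RPKM in control. In stroma none of 12 kept genes of this list was 2-fold apart, and the median was 0.07. Ratios with limits above 1 there were Fosl2 (1.47), Errfi1 (1.26), Jun (1.25) and Myc (1.22), also named after their values were seen. Lif and Egr3, listed at 0 in control stroma, had lower limits of 3.28 and 2.14. Rgs2, which limits signalling by G proteins, was at 18.1 RPKM in stroma labelled knockout and 21.3 RPKM in control. Its ratio was 0.85 with limits of 0.806 and 0.895. Limits that left out equal levels were found in 35.1% of genes in stroma.

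The relay itself, from adaptors through RAS, RAF and MEK to ERK, had 20 of 27 measured genes kept in epithelium and 22 in stroma, and none was 2-fold apart on the log2(RPKM + 1) scale in either. Its median was 0.06 in both. As a ratio of RPKM, Pea15a, an ERK-binding protein named after its values were seen, was 2.15 in epithelium with limits of 1.61 and 2.98. Araf, a RAF kinase, was at 8.34 RPKM in epithelium labelled knockout and 8.03 RPKM in control. Of 17 brakes on the relay, 8 were kept in epithelium and 9 in stroma, with none 2-fold apart and medians of 0.07 and 0.14. The most abundant were Pebp1, which binds RAF, at 24.1 RPKM in epithelium labelled knockout and 23.7 RPKM in control, and the phosphatase subunit Ppp2ca, at 13.0 RPKM in the labelled knockout and 11.7 RPKM in the control.

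Other ETS factors, 17 of them measured, were not 2-fold apart in either compartment among the 10 kept in epithelium and 9 in stroma, with medians of 0.08 and -0.09. As ratios of RPKM in epithelium, limits were above 1 for Ets2 (1.82), Elf4 (1.81), Elf3 (1.66) and Etv6 (1.2). They were below 1 for Gabpa (0.644), and for Ets1 (0.208, on 51 and 17 reads) and Fli1 (on 1 and 2 reads), which were not kept. All but Elf3 were named here after their values were seen. Elf3, an epithelial ETS factor, was at 18.9 RPKM in epithelium labelled knockout and 11.4 RPKM in control. Ehf, another, was at 16.1 RPKM in epithelium labelled knockout and 15.2 RPKM in control. Both stood above Etv5 per length in the 2 epithelial libraries, and below it in the 2 stromal ones. Among 17 receptors upstream, 8 were kept in epithelium, with 1 higher by that scale, none lower and a median of -0.07. Of these 8, 2 were above 0 and 6 below. As ratios of RPKM, the growth factor receptor gene Igf1r was at 0.411 with limits of 0.349 and 0.487. The insulin receptor gene Insr was at 2.11 with limits of 1.56 and 2.87. Limits were also below 1 for Egfr (0.695), Met (0.625), Pdgfrb (0.3) and Pdgfra (0.258). All of these but Pdgfra were named after their values were seen. Fgfr2, the main epithelial fibroblast growth factor receptor, was at 24.9 RPKM in epithelium labelled knockout and 27.9 RPKM in control, a ratio of 0.893 with limits of 0.823 and 0.969. The collagen receptor gene Ddr1 was at 11.0 RPKM in epithelium labelled knockout and 4.99 RPKM in control, just over the 2-fold mark at a log2 difference of 1.0. It fell under the mark, to 0.88 and 0.79, when the libraries were rescaled. In stroma 5 receptors were kept, none was 2-fold apart and the median was 0.12. Pdgfra, the platelet-derived growth factor receptor of stroma, was at 13.3 RPKM in stroma labelled knockout and 17.96 RPKM in control.

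**Figure D4:**
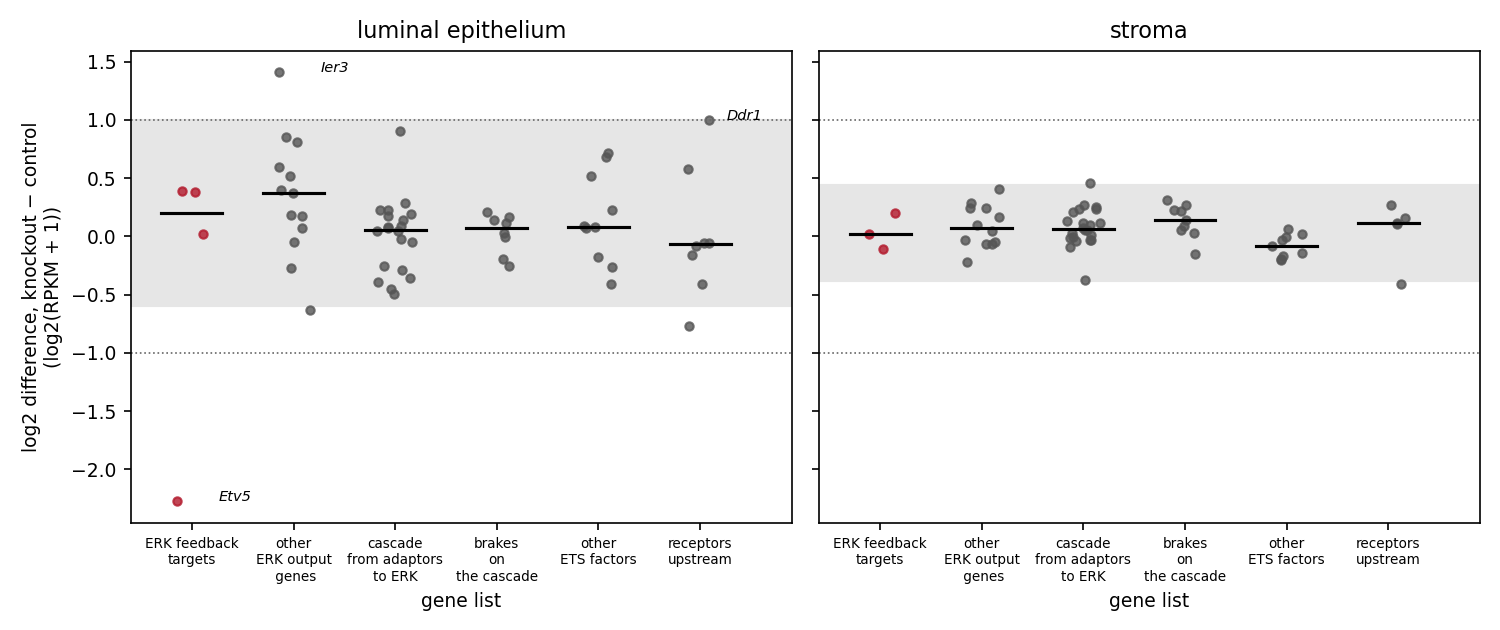
Difference in log2(RPKM + 1), labelled knockout minus control, for kept genes of the 9 ERK feedback targets and 5 pathway lists in luminal epithelium (left) and stroma (right), 1 library per group; each dot is a gene, bars are medians, the grey band spans the 5th to 95th percentile of all kept genes and dotted lines mark 2-fold. Etv5, at -2.27, lies lowest in epithelium, where Igf1r at -0.77 and Trib1 at -0.64 are the other genes below the band.

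Genes with the pattern most like Etv5 were found by the largest gap from it over the 4 values of log2(RPKM + 1), among 18740 named genes. The nearest was Oas1a, an oligoadenylate synthetase, with a largest gap of 0.29. It was at 1.11 RPKM in epithelium labelled knockout and 6.76 RPKM in control, and at 0.539 RPKM in stroma labelled knockout and 0.962 RPKM in control. The next were Sh3tc2, a protein of endosomal recycling (0.39), Tmem38b, an ion channel of the endoplasmic reticulum (0.41), Zbp1, a sensor of foreign nucleic acid (0.45), and Fut4, a fucosyltransferase (0.47). Each was high in control epithelium and low in the other 3 libraries, which is what the measure asked for. Dusp6 had closer matches, Cyth2, an exchange factor for ARF proteins (0.07), Abcd3, a peroxisomal transporter (0.10), Tomm34, a mitochondrial import helper (0.11), Edem2, of glycoprotein degradation (0.12), and Naa25, an acetyltransferase subunit (0.14). With 4 libraries, such matches could not be separated further.

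**Figure D5:**
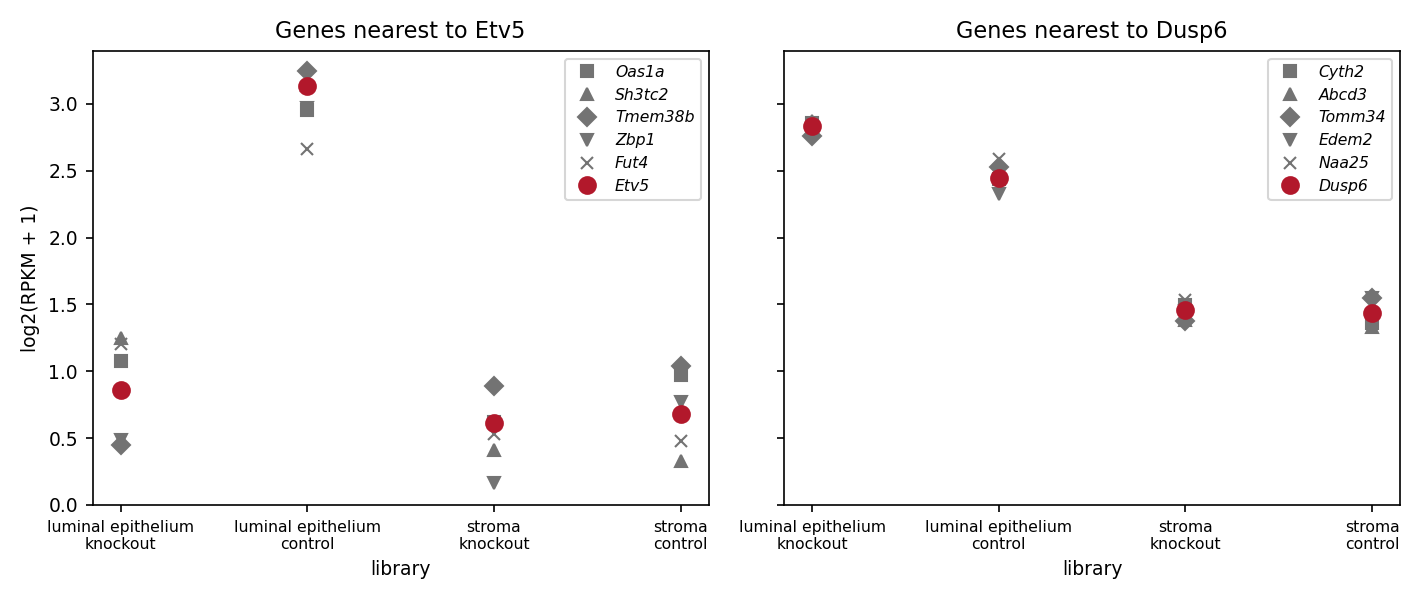
Levels in log2(RPKM + 1) of Etv5 (left) and Dusp6 (right, both red circles) with the 5 named genes nearest to each (grey), in the 4 libraries, 1 library per group. The largest gaps run from 0.29 to 0.47 for Etv5 and from 0.07 to 0.14 for Dusp6.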

How the data were processed

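The authors deposited 2 tables, 1 per compartment, of RPKM per gene for 4 libraries, per the file headers, with the authors' own q-value, p-value and log2 fold change for labelled knockout against control. The values in that fold change column are the authors' log2 ratios of the RPKM columns, and deposited other-unit columns such as the test statistic were not used. The submitters' processing notes name build mm9, Cufflinks 2.0.2, TopHat2 2.0.5, TopHat and CASAVA 1.8.2. Their roles, settings and the use of strand are not given in the sources used here. Per the labels' protocols, the captured cells went through a PicoPure extraction, and a stranded library kit with removal of ribosomal RNA was used.

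Differences are log2((first + 1)/(second + 1)) of RPKM. Genes whose 2 values averaged 1 RPKM or more were kept, and a call is a difference of at least 2-fold on that scale. Depth was estimated from low RPKM values times transcript length less 200 bp, which pile up at whole multiples of the value of 1 read. Between 56.8% and 59.2% of low values lay within 0.2 of a whole number, against 40.0% of evenly spread ones. The step was fitted to those values, so the limits from it are approximate. Lengths came from GENCODE vM21, another build, and are medians over transcripts of a gene. Limits are 95% Clopper-Pearson for ratios and exact Poisson for plotted levels, and reads copied by amplification are not independent molecules. The floor is 3 reads. Loci are as deposited with starts raised by 1, because 7152 of 20601 loci had the RefSeq gene length when starts were counted from 0, against 452 from 1. The table of a column was matched to a compartment by the table's name.

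The members, lists and markers were chosen with earlier results of these data known. The rule for named genes was all 9 members, the called and the 2 most abundant genes of each list, and the 5 genes nearest to Etv5 and Dusp6. A gene that this rule names is not reported here. Hras, Spi1, Adgre1, and 2 globin genes did not match a symbol of the tables. Luminal epithelial markers summed to 169 RPKM in epithelium labelled knockout and 122 RPKM in control, and erythrocyte markers to 0.63 RPKM in the labelled knockout and 0.659 RPKM in the control. Computation relied on matplotlib 3.10.9, scipy 1.17.1, pandas 2.3.3, numpy 2.4.6 and Python 3.11.15, and were tested on simulated data.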

Additional observations from a re-analysis of the deposited data

Results flagged for a closer look

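With 1 library per group, 39 genes were examined, those named by rule and some others whose levels or ratios are given. Of these, 13 had opposite directions of the labelled knockout to control ratio in the 2 compartments, each level resting on more than 3 estimated reads. None of these differences was tested. For Spry2, Msx2 and Il17rd the counting limits of the ratio reached equal levels in both compartments. They did so in stroma for Ddr1, Trib1, Igf1r and Hbegf, and in epithelium for Spred2 and Ehf. An opposite direction was therefore not resolved by counting for any of these genes. Limits are not given for those picked for likeness to Etv5 or Dusp6. Of all kept genes, 61.9% of 7736 in epithelium and 64.2% of 7723 in stroma were higher in the labelled knockout. The share of all genes with opposite directions was not computed. The 39 include genes named after their values were seen or picked for likeness to Etv5 or Dusp6, so the count is a description only. Among the ERK feedback targets, Spry2 had a log2 ratio of 0.59 in luminal epithelium and -0.21 in stroma, a gap of 0.80. Spred2 had -0.14 in luminal epithelium and 0.76 in stroma, a gap of -0.90.

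Of the other genes, Ddr1 had 1.14 in luminal epithelium and -0.22 in stroma, a gap of 1.36, and Ehf had 0.08 in luminal epithelium and -1.8 in stroma, a gap of 1.89 that rests on stromal levels of 0.0173 RPKM in the labelled knockout and 0.0604 RPKM in the control. Msx2 had 0.66 in luminal epithelium and -1.25 in stroma, a gap of 1.91 that rests on 8 stromal reads in the labelled knockout and 13 in the control. Trib1 had -1.2 in luminal epithelium and 0.37 in stroma, a gap of -1.57. Igf1r had -1.28 in luminal epithelium and 0.04 in stroma, a gap of -1.32. Hbegf had 1.74 in luminal epithelium and -0.53 in stroma, a gap of 2.27. Il17rd had 0.06 in luminal epithelium and -0.18 in stroma, a gap of 0.24. Among genes nearest in pattern to Etv5 and Dusp6, the gap was -2.88 for Sh3tc2, -2.21 for Fut4, 0.55 for Tomm34 and 0.69 for Edem2.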

How the results depend on the processing

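The 9 alternatives were run on each contrast, 1 choice at a time. Etv5 stayed lower in epithelium labelled knockout under all 9, between -3.11 and -2.27, and was called under 8. With a minimum of 5 RPKM it dropped out, leaving 0 members lower, because its mean over the pair is below that. No member was called in stroma under any. Between compartments, members called higher in the labelled knockouts went to 2 with a pseudocount of 0.1 RPKM, 3 with a 1.5-fold call, and 0 with upper quartile scaling or a minimum of 5 RPKM. In the controls they went to 1 with upper quartile scaling or scaling without the 50 most abundant genes, and 0 with a minimum of 5 RPKM. Spred1 was added in the controls with a pseudocount of 0.1 or 0.5 RPKM, or with a 1.5-fold call. Of 324 member values, 38 moved beyond their counting limits and 286 did not. Spred1 in epithelium and Dusp6 in stroma, both near 0, changed sign under both scalings.

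Genes called in either direction numbered 543 in epithelium, with 919 at a pseudocount of 0.1 RPKM, 266 at a minimum of 5 RPKM and 1311 at a 1.5-fold call. In stroma 235 became 73 without small RNA and unnamed models, 434 at 1.5-fold and 93 when counting limits also had to leave out equal levels. Between compartments, 2620 in the labelled knockouts became 963 at 5 RPKM and 4193 at 1.5-fold, and 2547 in the controls became 897 and 4100. Scaling without the 50 most abundant genes moved the median of all genes in epithelium by -0.19. No paired analysis was possible because each group holds 1 library. In the shallow epithelial control, Etv4, Etv1 and Spry4 rest on 0 to 2 reads, which limits any ratio.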
